A study of Mus musculus with 12 samples.

Results

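The 10 genes described here encode the enzymes that lengthen fatty acids at the endoplasmic reticulum, and they were found by symbol among the 49585 genes counted in each mouse. They are the 7 elongases *Elovl1* to *Elovl7* and 3 enzymes that complete the cycle, *Hsd17b12*, *Hacd3*, and *Tecr*. The tissue was the adrenal cortex of 12 mice, 4 per group, and each mouse was sequenced as a library of its own. ND mice received a normal (low-fat) diet for 20 weeks, HFD mice a high-fat diet for 20 weeks, and Vasc mice the high-fat diet for 20 weeks with icosapent ethyl, an ethyl ester of eicosapentaenoic acid (EPA), in the last 10 weeks. The labels give the genotype of all 12 mice as Fads2-/-, whereas the study's methods describe male wild-type C57BL/6J mice for this experiment. *Fads2* (Δ6 desaturase) was expressed at 452 CPM (counts scaled to the normalized library total) or more in every mouse. The 3 groups are named below as the labels name them, and the genotype is given as unresolved. The HFD mice are the reference for the Vasc mice and the ND mice the reference for the HFD mice, so that the comparisons share animals and are given side by side only.

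Each turn of the elongation cycle adds carbons from malonyl-CoA to an acyl-CoA. The ELOVL enzyme condenses both substrates and sets which chains are lengthened, HSD17B12 reduces the resulting ketone, a HACD enzyme removes water, and TECR reduces the remaining double bond. Together with the desaturases, the cycle turns dietary linoleic and α-linolenic acid into long polyunsaturated fatty acids (PUFAs), among them adrenic acid, an elongation product of arachidonic acid that is named after the adrenal gland, where it is abundant in cholesteryl esters.

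The libraries held from 34785979 to 67295963 counts on genes, and CPM were computed with TMM factors, which correct for differences in RNA composition between libraries and lay between 0.883 and 1.14. Chi-square per degree of freedom was 25.9 or more in all 66 pairs of libraries, so that none duplicated another. Markers of steroidogenic cells, 10 genes including *Cyp11b1* and *Star*, summed to between 44562 and 75243 CPM in ND mice, 58828 and 105827 CPM in HFD mice, and 61485 and 97662 CPM in Vasc mice. Markers of chromaffin cells of the medulla, 12 genes, were present in every mouse as well, at 6295 to 22188 CPM in ND, 3044 to 9842 CPM in HFD, and 5434 to 10750 CPM in Vasc mice.

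The abundant members covered every step of the cycle, and 1 elongase, *Elovl5*, carried most of the elongase RNA. To compare genes, CPM were divided by the length of their exons in kilobases. *Hacd3* (the dehydratase; a single annotated transcript) had the highest mean at 215 CPM per kilobase over 12 mice, followed by *Elovl5*, which lengthens polyunsaturated chains, at 187, *Tecr* at 149, and *Hsd17b12* at 88.4 CPM per kilobase. *Elovl1*, which acts on saturated and monounsaturated very-long chains, followed at 24.2, *Elovl6*, which lengthens palmitate, at 5.62, and *Elovl7* at 1.86 CPM per kilobase. Of the remaining elongases, *Elovl4*, required for the longest chains of retina, skin, and brain, was at 0.227, *Elovl2*, which acts after *Elovl5* in the synthesis of docosahexaenoic acid, at 0.110, and *Elovl3*, an elongase of skin and brown fat, at 0.066 CPM per kilobase. The 3 partner enzymes and *Elovl5* were thus at levels per kilobase above those of all other elongases.

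Each gene was above the next one in this order in all 12 mice, with 3 exceptions at 9 of 12 mice, which were *Hacd3* above *Elovl5*, *Elovl5* above *Tecr*, and *Elovl2* above *Elovl3*. By an exact sign-flip permutation test of the log2 ratio within mice (two-sided, 9 neighbours, Benjamini-Hochberg adjustment), the 6 pairs with the same order in every mouse had an adjusted p of 0.000732, the smallest the design allows being a raw p of 0.000488, and the other 3 pairs 0.0142. The order was set by the means of the same 12 mice, so that these p-values describe only how steady each ratio was between mice. They take no account of the gene length, and the top of the order depended on the length used. With the length of the longest transcript it was *Tecr*, *Elovl5*, *Hacd3*, and 2 ranks of 10 changed, so that the order of these 3 genes holds for the exon length only. Within the summed level per kilobase of the 7 elongases, *Elovl5* took 84.9% ± 2.71 (SD, n = 12), *Elovl1* 11.4% ± 2.47, *Elovl6* 2.55% ± 0.199, and *Elovl7* 0.915% ± 0.367. The share of *Elovl5* was between 83.1 and 87.9% in ND, 82.6 and 87.7% in HFD, and 80.2 and 88.0% in Vasc mice, and the 3 ranges overlapped.

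**Figure D1:**
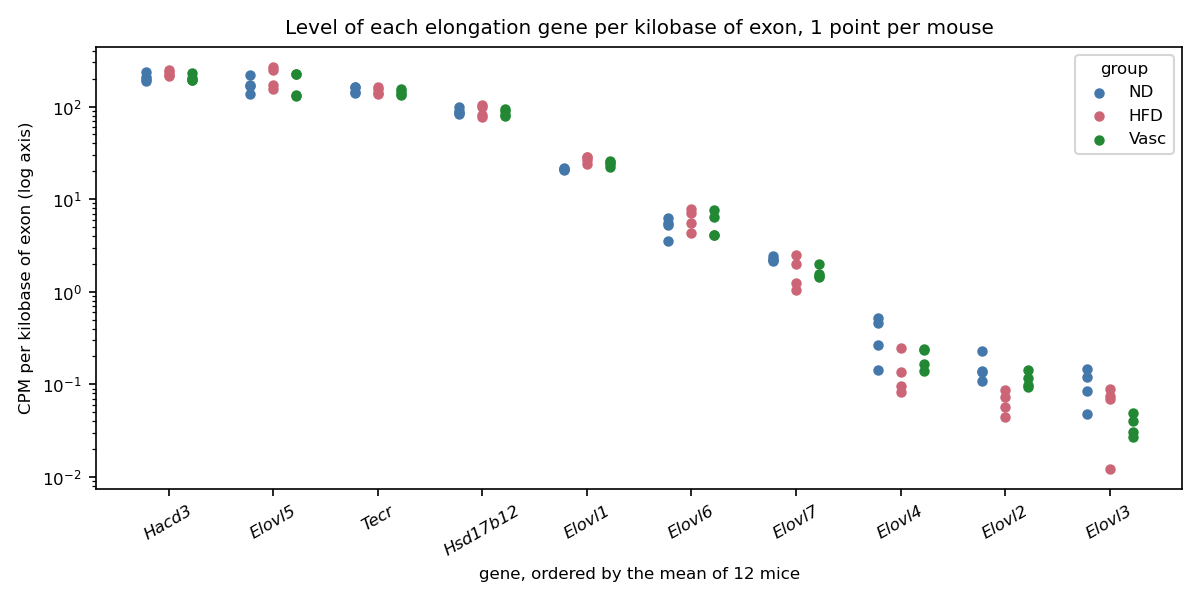
Level of each elongation gene in CPM per kilobase of exon (log axis) in each of 12 mice, colored by group, with genes ordered by their mean. *Hacd3*, *Elovl5*, and *Tecr* lie at the top with means of 215, 187, and 149, and *Elovl4*, *Elovl2*, and *Elovl3* lie below 1 in every mouse.

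RefSeq promoters (GRCm38.p6) were matched for 9 of the 10 genes. The sequences just upstream of the start are shown for the 4 elongases on which the results turn: *Elovl5* and *Elovl6*, which varied together between mice, and *Elovl1* and *Elovl2*, whose HFD and ND mice did not overlap. Bases that GENCODE places in an exon of the gene were left out. They run 5′ to 3′ on the coding strand, in lower case, with matches to 5 motifs, searched on both strands, in capitals. The motifs were the box CCAAT, the GC box GGGCGG, the palindromic E-box CACGTG, the half-site CAAGGNCA of nuclear receptors such as SF-1, and the sterol-response-type element TCACNCCAC, and the GC box and the CCAAT box may share bases.
Elovl5, chr9:77917115-77917363, plus strand: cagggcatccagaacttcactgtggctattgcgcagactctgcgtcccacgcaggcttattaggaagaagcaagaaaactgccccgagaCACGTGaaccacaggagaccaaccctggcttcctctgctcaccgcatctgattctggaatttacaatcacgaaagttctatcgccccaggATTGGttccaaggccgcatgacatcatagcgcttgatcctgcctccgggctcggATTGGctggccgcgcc
Elovl6, chr3:129532136-129532354, plus strand: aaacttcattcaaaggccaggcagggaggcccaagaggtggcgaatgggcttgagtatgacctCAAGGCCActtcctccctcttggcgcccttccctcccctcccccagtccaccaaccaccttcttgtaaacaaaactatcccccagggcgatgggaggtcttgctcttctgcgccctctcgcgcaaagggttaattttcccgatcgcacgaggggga
Elovl1, chr4:118427843-118428092, plus strand: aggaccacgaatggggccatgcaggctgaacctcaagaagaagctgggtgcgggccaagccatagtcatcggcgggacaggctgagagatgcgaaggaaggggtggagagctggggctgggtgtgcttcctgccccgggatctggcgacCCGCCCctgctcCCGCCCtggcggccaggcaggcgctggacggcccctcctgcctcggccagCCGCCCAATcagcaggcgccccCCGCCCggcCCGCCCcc
Elovl2, chr13:41220406-41220653, minus strand: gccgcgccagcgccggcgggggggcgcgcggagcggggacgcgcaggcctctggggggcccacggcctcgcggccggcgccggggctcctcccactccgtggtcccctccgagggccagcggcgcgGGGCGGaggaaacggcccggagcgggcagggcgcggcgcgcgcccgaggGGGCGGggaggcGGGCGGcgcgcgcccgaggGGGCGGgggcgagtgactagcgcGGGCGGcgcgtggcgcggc
The *Elovl5* window held CACGTG 161 bases and the reverse complement of CCAAT 71 and 17 bases before the RefSeq start, counted from the first base of the match. Of 32851 promoter windows of 250 bases, 6.02% held CACGTG and 33.8% held CCAAT. The *Elovl6* window held CAAGGNCA 187 bases before the start (5.53% of all windows) and none of the other motifs. GGGCGG, present in 32.7% of all windows, occurred 5 times each in the windows shown for *Elovl1* and *Elovl2*, and 1 of the 5 before *Elovl1* overlapped its CCAAT. Both genes have another RefSeq start, whose window is not shown. That of *Elovl1* held GGGCGG 48 and 37 bases before the start and no CCAAT, and that of *Elovl2* held none of the motifs. TCACNCCAC (1.05% of all windows) matched no member. G and C made up 72% of the *Elovl1* window, 87.2% of the *Elovl2* window, 55.6% of the *Elovl5* window, and 56.4% of the *Elovl6* window over 250 bases, against a median of 52.4% over all. A match is a run of letters and no evidence of binding.

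To address whether a high-fat diet changes the elongation genes, HFD mice were compared with ND mice. *Elovl1* was higher and *Elovl2* lower in every HFD mouse than in any ND mouse, but 0 of the 9 tested members had an adjusted p below 0.05 by edgeR, against 1.45% of all genes (230 of 15909). DESeq2 called 2 of 9 members, *Elovl1* and *Elovl2*, against 12.6% of all genes. *Elovl3* did not pass the filter on low counts (1 to 13 counts per mouse). At an unadjusted p below 0.05 stood 3 of 9 members, *Elovl1*, *Elovl2*, and *Elovl4*, against 24.8% of all genes. The groups did not overlap for 2 of 9 members, against 13.5% of all genes. Of the 9 members, 5 had a positive and 4 a negative log2 fold change, with a median of 0.0038, and the median of all genes was -0.015.

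*Elovl1*, which makes very-long saturated chains for sphingolipids, is on chromosome 4 (118428093 to 118432953, plus strand, GRCm38). It was at 56.6, 58.5, 57.6, and 59.6 CPM in the ND mice (replicates 2, 5, 6, and 7), 65.3, 78.0, 72.0, and 77.5 CPM in HFD replicates 1 to 4, and 70.4, 65.3, 60.7, and 68.7 CPM in Vasc replicates 1 to 4. The ND mice lay close together and below every mouse of the other 2 groups, while HFD and Vasc mice overlapped. All HFD mice were above all ND mice, as for 7.71% of all genes. Between HFD and ND mice, the log2 fold change was 0.33 (SE 0.077, 95% CI 0.15 to 0.50, 1.25-fold), and its Benjamini-Hochberg adjusted p was 0.0636 (quasi-likelihood fit of edgeR). It passed the threshold by DESeq2 (adjusted p 0.00738), in the edgeR fit of all 12 mice (0.0429, 3.42% called), and without HFD replicate 1 (0.0343, 5.7% called), and its adjusted p over the 15 alternatives lay between 0.00738 and 0.178. Its exons overlap those of *Cdc20* on the opposite strand by 53 bases, and the counting used strand.

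*Elovl2* (chromosome 13, 41182381 to 41220405, minus strand) was low throughout, with 9 to 48 counts per mouse. It was at 0.902, 0.536, 0.556, and 0.428 CPM in ND replicates 2, 5, 6, and 7, 0.341, 0.174, 0.292, and 0.226 CPM in HFD replicates 1 to 4, and 0.371, 0.395, 0.565, and 0.468 CPM in Vasc replicates 1 to 4. The HFD mice were below all others, and Vasc and ND mice overlapped. Relative to ND mice, HFD mice had a log2 fold change of -1.25 (SE 0.34, 95% CI -2.02 to -0.48), with an adjusted p of 0.0853 by edgeR and 0.0328 by DESeq2, the range over the alternatives being 0.0328 to 0.206. All 4 HFD mice were lower than all ND mice, as for 5.81% of all genes. In Vasc versus HFD mice, the log2 fold change was 0.81 (SE 0.29, 95% CI 0.14 to 1.48, 1.75-fold), with an unadjusted p of 0.0227 and an adjusted p of 0.9997 by edgeR. All 4 Vasc mice were above all 4 HFD mice, as for 0.484% of all genes. Without 1 mouse at a time it stayed between 0.65 and 0.98.

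*Elovl4* (chromosome 9, 83778692 to 83806277, minus strand) was at 1.39, 0.814, 1.56, and 0.428 CPM in ND replicates 2, 5, 6, and 7, 0.745, 0.252, 0.414, and 0.294 CPM in HFD replicates 1 to 4, and 0.716, 0.500, 0.726, and 0.420 CPM in Vasc replicates 1 to 4. HFD replicates 2 to 4 were below all ND mice, and HFD replicate 1 was within their range. The log2 fold change in HFD versus ND mice was -1.31 (SE 0.49, 95% CI -2.41 to -0.21) with an adjusted p of 0.149 by edgeR, and the groups overlapped. The chromaffin markers stood in the same direction as *Elovl2* and *Elovl4*. In HFD versus ND mice 12 of 12 had a negative log2 fold change, with a median of -1.24. By edgeR, 0 were called (1.45% of all genes) and 9 were at an unadjusted p below 0.05 (24.8% of all genes). In Vasc versus HFD mice 12 of 12 had a positive log2 fold change, with a median of 0.57. Here 0 were called (0% of all genes) and 0 were at an unadjusted p below 0.05 (1.39% of all genes). None of these markers was at 0 in any mouse. Their part in the differences of *Elovl2* and *Elovl4* was not tested. In bulk tissue, fewer cells of a type and less RNA per cell cannot be told apart.

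**Figure D2:**
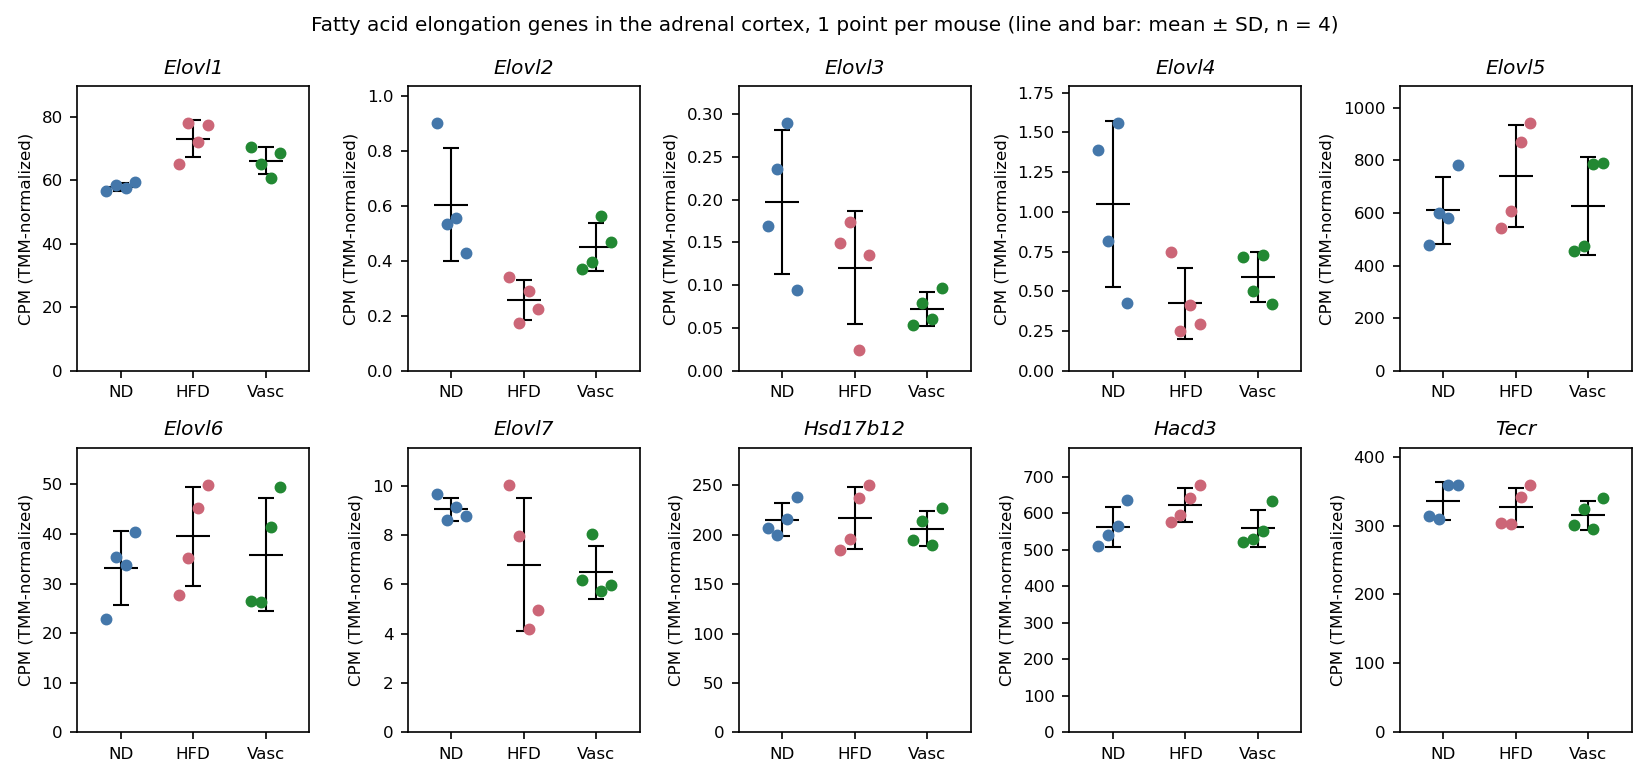
TMM-normalized CPM of the 10 elongation genes, 1 point per mouse, with the mean and SD of each group of 4 mice, on axes that start at 0. All HFD points lie above all ND points for *Elovl1* and below all ND and all Vasc points for *Elovl2*, whereas the groups overlap for *Elovl5*, *Elovl6*, *Hsd17b12*, *Hacd3*, and *Tecr*.

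*Elovl5* (chromosome 9, 77917364 to 77984519, plus strand), the elongase with the highest level per kilobase, was spread widely within each group. It was at 477, 599.9, 582, and 781 CPM in ND replicates 2, 5, 6, and 7, 544, 606, 870.4, and 941 CPM in HFD replicates 1 to 4, and 454, 475, 785, and 789.6 CPM in Vasc replicates 1 to 4. In HFD and in Vasc mice, replicates 3 and 4 were high and replicates 1 and 2 low, and all 3 groups overlapped. The group means were 610.0 ± 126, 740.4 ± 195, and 626 ± 187 CPM (SD, n = 4). The log2 fold change was 0.27 (SE 0.20, 95% CI -0.18 to 0.73, adjusted p 0.429 by edgeR) in HFD versus ND mice and -0.24 (SE 0.25, 95% CI -0.80 to 0.32, adjusted p 0.9997) in Vasc versus HFD mice, so that differences of up to 1.65-fold higher in HFD than in ND mice lay within the interval.

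*Elovl6* (chromosome 3, 129532355 to 129638495, plus strand), which lengthens the palmitate made by fatty acid synthase, had the same order of mice within the HFD group. It was at 22.9, 35.4, 33.7, and 40.5 CPM in ND replicates 2, 5, 6, and 7, 27.7, 35.2, 45.3, and 49.9 CPM in HFD replicates 1 to 4, and 26.5, 26.2, 41.3, and 49.4 CPM in Vasc replicates 1 to 4. The groups overlapped, and the log2 fold change was 0.25 (SE 0.21, 95% CI -0.23 to 0.72, adjusted p 0.494 by edgeR) in HFD versus ND mice and -0.14 (SE 0.25, 95% CI -0.72 to 0.44, adjusted p 0.9997) in Vasc versus HFD mice. Its exons overlap those of the antisense gene *Gm35986* by 34 bases.

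*Elovl7* (chromosome 13, 108214404 to 108285683, plus strand), an elongase of saturated long-chain acyl-CoAs, was at 9.66, 8.61, 9.13, and 8.79 CPM in ND replicates 2, 5, 6, and 7, 10.0, 7.95, 4.21, and 4.97 CPM in HFD replicates 1 to 4, and 6.18, 8.06, 5.75, and 5.96 CPM in Vasc replicates 1 to 4. The ND mice again lay close together, all Vasc mice were below them, and HFD replicate 1 was above them. The log2 fold change was -0.42 (SE 0.27, adjusted p 0.359 by edgeR) in HFD versus ND mice and -0.48 (SE 0.16, 95% CI -0.83 to -0.13, adjusted p 0.267) in Vasc versus ND mice. The latter passed the threshold by DESeq2 only (adjusted p 0.0395, 2.93% of all genes called, with 0.0395 to 0.523 over the alternatives).

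The 3 partner enzymes differed little between mice. *Hacd3* (chromosome 9, 64986983 to 65021693, minus strand) was between 509 and 635 CPM in ND, 576 and 678 CPM in HFD, and 521 and 632 CPM in Vasc mice. *Tecr* (chromosome 8, 83571698 to 83607971, minus strand), which catalyzes the last step, was between 309 and 359, 302 and 359, and 295 and 340.3 CPM, and *Hsd17b12* (chromosome 2, 94032689 to 94157964, minus strand), the ketone reductase, between 199 and 238, 185 and 250.5, and 189 and 227 CPM. The highest mouse had 1.33 times the lowest for *Hacd3*, 1.22 times for *Tecr*, and 1.35 times for *Hsd17b12*, against 1.38 times for *Elovl1*, 2.07 times for *Elovl5*, and 2.18 times for *Elovl6*. In HFD relative to ND mice, the log2 fold change was 0.14 for *Hacd3* (95% CI -0.062 to 0.34), -0.046 for *Tecr* (95% CI -0.25 to 0.15), and 0.0038 for *Hsd17b12* (95% CI -0.24 to 0.25), with adjusted p-values of 0.360, 0.788, and 0.988 by edgeR. The sign for *Hsd17b12* was negative with library totals in place of TMM factors (-0.11). *Elovl3* (chromosome 19, 46131897 to 46135694, plus strand) was between 0.0243 and 0.289 CPM in all mice, and the edgeR fit without a filter gave log2 fold changes of -0.68 in HFD versus ND (adjusted p 0.549), -0.72 in Vasc versus HFD (0.962), and -1.39 in Vasc versus ND mice (0.412).

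To determine whether icosapent ethyl alters the elongation genes in mice on the high-fat diet, Vasc mice were compared with HFD mice. By edgeR, 0 of 9 members and 0 of all 15913 tested genes were called (0%, lowest adjusted p 0.9997), with 1 of 9 members and 1.39% of all genes (221) at an unadjusted p below 0.05. DESeq2 called 6 genes, 0.0377% of those tested, and no member. *Elovl2* was the member at an unadjusted p below 0.05 and the 1 member of 9 whose groups did not overlap, against 1.14% of all genes. The other 8 members had log2 fold changes between -0.24 (*Elovl5*) and 0.46 (*Elovl4*, 95% CI -0.41 to 1.34). That of *Elovl4* was 0.88 without HFD replicate 1 and 0.27 without HFD replicate 2. These intervals were widest for *Elovl4* and *Elovl7* (95% CI -0.71 to 0.57) and narrowest for *Elovl1* (-0.14, 95% CI -0.34 to 0.049) and *Tecr* (-0.052, 95% CI -0.25 to 0.14). Only *Elovl2* and *Elovl4* were positive in this comparison, and the median of the 9 was -0.073, against 0.0040 over all genes. With the replicate number as a block, 0 members were called, the lowest adjusted p of all genes was 0.487, and the log2 fold change of *Elovl5* was -0.25 (SE 0.069, unadjusted p 0.009, adjusted p 0.889 by edgeR, against 0.855 to 0.99997 over the alternatives).

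Vasc mice were also set against ND mice. Here edgeR called 0 of 9 members and 0% of 15935 genes (lowest adjusted p 0.153), and DESeq2 called 1 member, *Elovl7*, and 2.93% of all genes. At the same time 2 of 9 members, *Elovl1* and *Elovl7*, were at an unadjusted p below 0.05, against 14% of all genes. The groups did not overlap for 2 members, *Elovl1*, higher in all 4 Vasc mice (as for 4.04% of all genes), and *Elovl7*, lower in all 4 (as for 3.69%), against 7.73% of all genes in either direction. The log2 fold change of *Elovl1* was 0.19 (SE 0.078, 95% CI 0.017 to 0.37, adjusted p 0.333 by edgeR). *Elovl2* and *Elovl4* had log2 fold changes of -0.42 (95% CI -1.09 to 0.25) and -0.83 (95% CI -1.75 to 0.079), where that of *Elovl2* was -0.16 without ND replicate 2, and those of *Elovl5*, *Elovl6*, *Hsd17b12*, *Hacd3*, and *Tecr* were between -0.090 and 0.12.

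**Figure D3:**
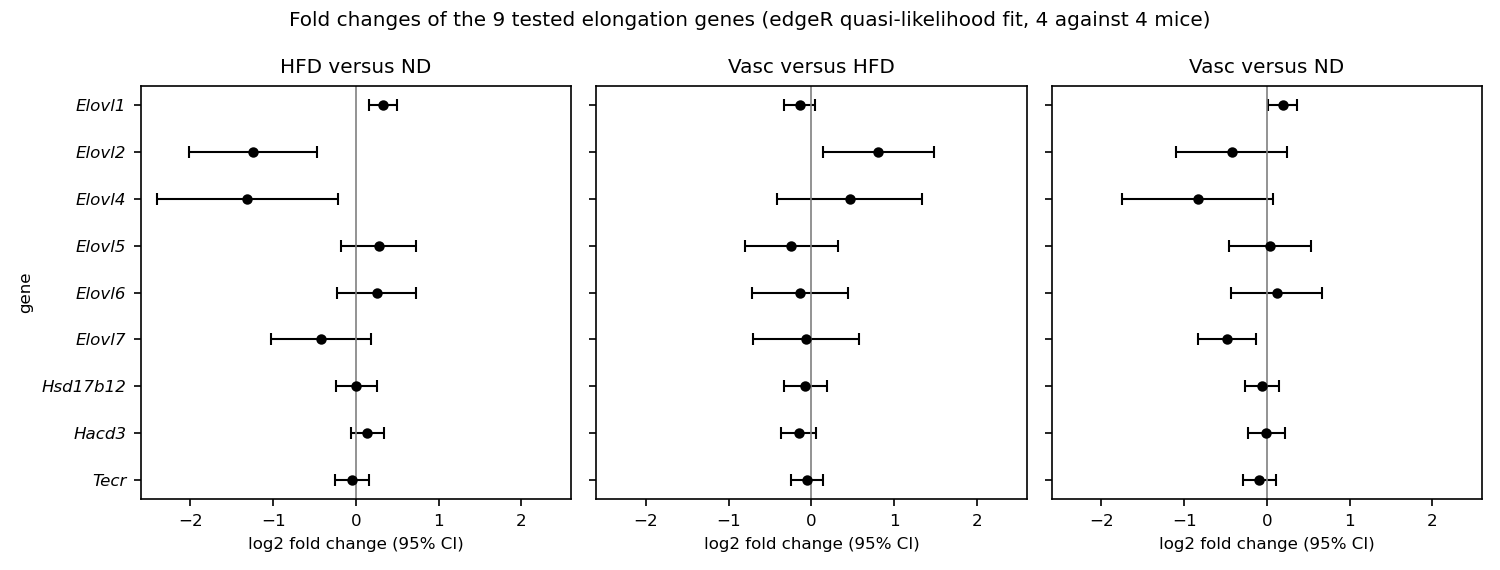
Log2 fold change with its 95% CI (edgeR, 4 against 4 mice) of the 9 tested members in HFD versus ND, Vasc versus HFD, and Vasc versus ND mice, where a value above 0 is higher in the first group. *Elovl2* lies at -1.25, 0.81, and -0.42, *Elovl1* at 0.33, -0.14, and 0.19, and no member had an adjusted p below 0.05.

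Some pairs of members varied together, or in opposite directions, from mouse to mouse. On log2 CPM over 12 mice, *Elovl5* and *Elovl6* had Pearson's r = 0.957 and Spearman's rho = 0.958 (permutation test, 100000 resamples, adjusted p = 0.00018 and 0.00054 over 36 pairs), and r was 0.944 without the 2 mice farthest from the median of *Elovl5*. The relation was present within the groups, at 0.960 once group means were subtracted and at 0.923, 0.976, and 0.973 within ND, HFD, and Vasc mice, each of only 4 mice. *Hacd3* followed *Elovl5* (r = 0.869, rho = 0.853, 0.774 without 2 mice, adjusted permutation p = 0.00552 and 0.00612) and *Elovl6* (r = 0.851, rho = 0.825, 0.760 without 2 mice, adjusted permutation p = 0.00552 and 0.011). *Hsd17b12* and *Tecr*, which encode the reductases of the cycle, formed another pair (r = 0.911, rho = 0.937, 0.902 without 2 mice, adjusted permutation p = 0.00156 and 0.00054). All mice were scaled with the same set of TMM factors, which enter every such relation. The permutations shuffled mice across groups, so that differences between groups enter the p-values here and below. The values of r with group means subtracted were not tested.

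*Elovl1* and *Elovl2* ran in opposite directions (r = -0.900, rho = -0.895, -0.802 without 2 mice, adjusted permutation p = 0.00018 and 0.00276), also with group means subtracted (-0.753). *Elovl2* and *Elovl4* ran together (r = 0.83, rho = 0.776, 0.682 without 2 mice, adjusted permutation p = 0.00552 and 0.0222), and *Elovl1* and *Elovl4* in opposite directions (r = -0.818, rho = -0.867, -0.670 without 2 mice, adjusted permutation p = 0.00607 and 0.00423). Of the 36 pairs, 8 had an adjusted p below 0.05 by Pearson's r and 7 by Spearman's rho. The remaining pair, *Hsd17b12* with *Hacd3*, passed by r alone (r = 0.726, rho = 0.615, 0.710 without 2 mice, adjusted permutation p = 0.0412 and 0.103).

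**Figure D4:**
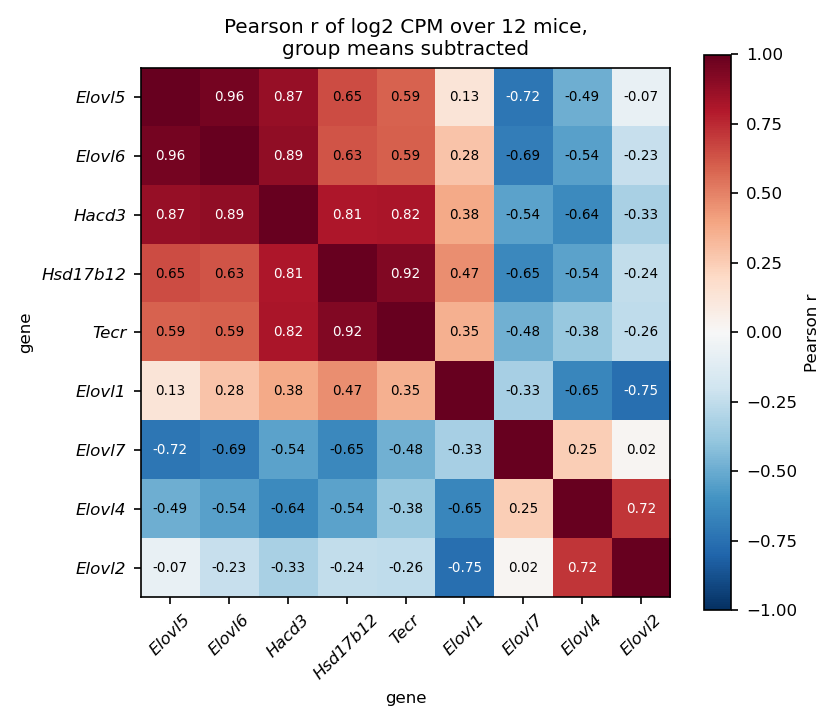
Pearson's r between the log2 CPM of 9 elongation genes over 12 mice after group means were subtracted, with the value in each cell (color scale from -1 to 1). *Elovl5*, *Elovl6*, *Hacd3*, *Hsd17b12*, and *Tecr* are positive with each other, and *Elovl1* is negative with *Elovl2* (-0.753) and *Elovl4* (-0.654).

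The members also differed in how they moved with cell type markers, each list taken as the log2 of its summed CPM. These 54 relations were tested by the same permutation across groups. The steroidogenic markers ran with *Elovl6* (r = 0.816, rho = 0.741, 0.718 without 2 mice, adjusted permutation p = 0.0148 and 0.0418), *Hacd3* (r = 0.790, rho = 0.657, 0.689 without 2 mice, 0.0222 and 0.0704), and *Elovl5* (r = 0.778, rho = 0.692, 0.691 without 2 mice, 0.025 and 0.0551), of which *Elovl6* alone passed by both measures. *Elovl1* also ran with them (r = 0.721, rho = 0.769, 0.628 without 2 mice, adjusted permutation p = 0.0403 and 0.0361, 0.483 with group means subtracted) and *Elovl4* opposite to them (r = -0.749, rho = -0.776, -0.670 without 2 mice, adjusted permutation p = 0.0299 and 0.0361, -0.593 with group means subtracted), both past the threshold by both measures. They ran opposite to *Elovl7* (r = -0.877, rho = -0.909, -0.843 without 2 mice, adjusted permutation p = 0.00648 and 0.00486). With group means subtracted, r was 0.892 for *Elovl6*, 0.897 for *Hacd3*, 0.873 for *Elovl5*, and -0.811 for *Elovl7*. In HFD versus ND mice, 10 of 10 of the steroidogenic markers had a positive log2 fold change. By edgeR, 0 were called (1.45% of all genes) and 6 were at an unadjusted p below 0.05 (24.8% of all genes). In Vasc versus HFD mice 10 of 10 had a negative log2 fold change. Here 0 were called (0% of all genes) and 0 were at an unadjusted p below 0.05 (1.39% of all genes). The part of these markers in the levels of the members named, *Elovl1* included, was not tested.

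The chromaffin markers ran with *Elovl4* (r = 0.949, rho = 0.944, 0.928 without 2 mice, adjusted permutation p = 0.0027 and 0.00216, 0.914 with group means subtracted) and *Elovl2* (r = 0.823, rho = 0.783, 0.596 without 2 mice, adjusted permutation p = 0.0133 and 0.0361, 0.695 with group means subtracted). They ran opposite to *Elovl1* (r = -0.834, rho = -0.853, -0.640 without 2 mice, adjusted permutation p = 0.0126 and 0.0149, -0.730 with group means subtracted). *Hacd3* also ran opposite to them and passed by r alone (r = -0.704, rho = -0.699, -0.654 without 2 mice, adjusted permutation p = 0.0403 and 0.0545, -0.623 with group means subtracted). For *Elovl2* the value within the Vasc group was -0.022, against 0.698 in ND and 0.931 in HFD mice, 4 mice each. Altogether 16 of 54 relations had an adjusted p below 0.05 by Pearson's r, 6 with steroidogenic, 4 with chromaffin, 4 with brown adipocyte, and 2 with endothelial markers. The brown adipocyte sum (5 genes, 7.98 to 36.0 CPM) was positive with *Elovl4* and *Elovl7* and negative with *Elovl5* and *Elovl6*. In HFD versus ND mice, 2 of its 5 genes had a positive and 3 a negative log2 fold change (0 called by edgeR). Mean CPM in ND and HFD mice were 14.3 and 4.35 for *Cox8b* and 2.56 and 2.69 for *Ucp1*. Within the Vasc group, r of this sum with *Elovl4* was -0.034. The endothelial sum (6 genes, 762 to 1347 CPM) was positive with *Elovl5* and *Elovl6*. Macrophage markers, of which 6 of 7 tested had a negative log2 fold change in HFD versus ND mice and 3 were called lower by edgeR (1.45% of all genes called; 359 to 552 CPM in sum in ND, 275 to 325 in HFD), and adipocyte markers had no relation with a member past the threshold.

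**Figure D5:**
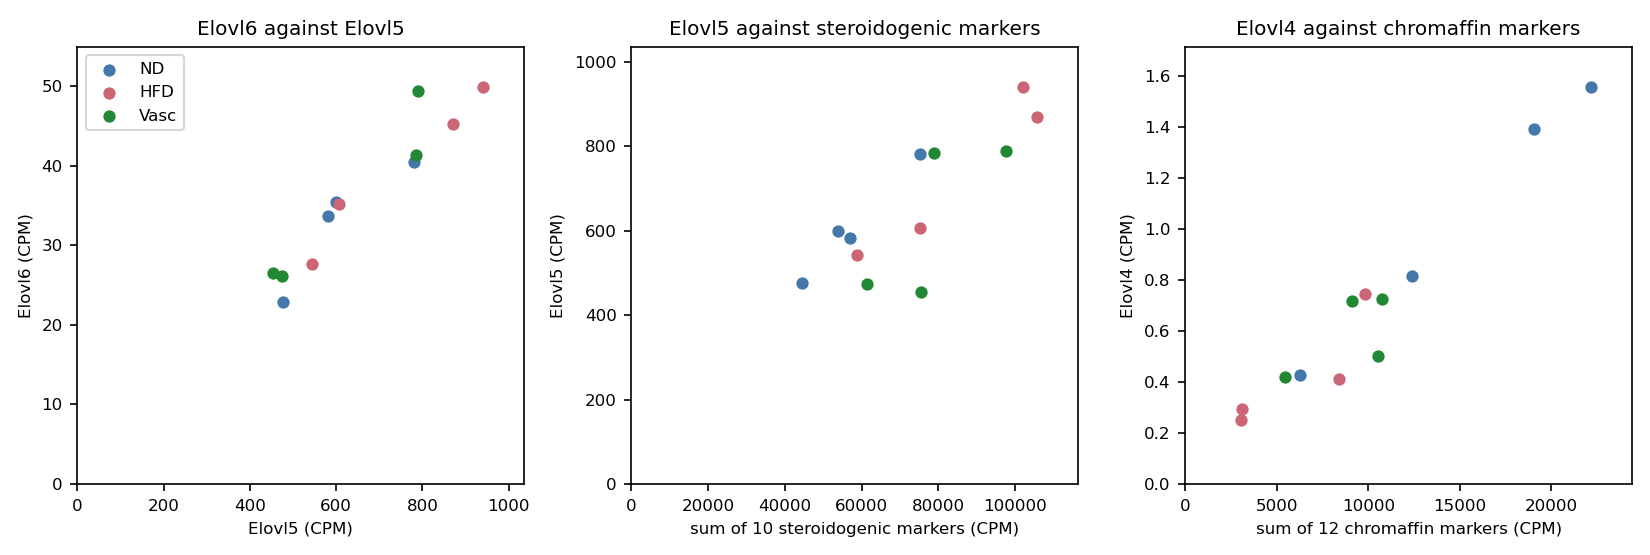
CPM of *Elovl6* against *Elovl5*, of *Elovl5* against the summed CPM of 10 steroidogenic markers, and of *Elovl4* against the summed CPM of 12 chromaffin markers, 1 point per mouse colored by group, on axes from 0. *Elovl6* rises with *Elovl5* in all 3 groups (r = 0.957 on log2 CPM), and the ND mice with the highest chromaffin sums have the highest *Elovl4*.

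Among 13457 genes with a mean of at least 1 CPM, genes of the highest Pearson's r over the 12 mice are given as a description. For *Elovl5* these included *Smox* (0.989) and *Cnot7* (0.967), and they were for *Elovl6* *Cerk* (0.981), *Ppard* (0.975), and *Pitpna* (0.973), for *Elovl1* *Slc46a1* (0.963), *Speer9-ps1* (0.960), and *Hspa12a* (0.959), and for *Elovl2* *9330159F19Rik* (0.988), *Cd9* (0.932), and *Cadm4* (0.927). Each gene given for *Elovl5* or *Elovl6* was above the r of 0.957 between these members, so that such values were not particular to the elongation genes.

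The neighbouring steps of fatty acid metabolism were followed in 7 lists of 64 genes. In HFD versus ND mice, 57 were tested, 2 were called higher and 0 lower by edgeR (1.45% of all genes called), and 17 had a positive and 5 a negative log2 fold change at an unadjusted p below 0.05 (24.8% of all genes). DESeq2 called 13 (12.6% of all genes). Both called genes came from different lists. *Acsl1*, an acyl-CoA synthetase, was at 51.2 ± 4.27 CPM in ND, 87.0 ± 6.82 CPM in HFD, and 78.2 ± 2.31 CPM in Vasc mice (SD, n = 4), and its log2 fold change in HFD versus ND mice was 0.76 (SE 0.089; edgeR, adjusted p 0.0293). *Fads6*, a member of the desaturase family, was at 95.7 ± 14.2, 166 ± 21.5, and 152 ± 27.9 CPM, and its log2 fold change was 0.78 (SE 0.13; edgeR, adjusted p 0.0384). Both calls ended with library totals (adjusted p 0.0523 for *Acsl1* and 0.0696 for *Fads6* by edgeR) and without any 1 mouse other than HFD replicate 1 or ND replicate 2, and without ND replicate 2 edgeR called *Acsl1* only. With 1 mouse left out, the log2 fold change stayed between 0.70 and 0.82 for *Acsl1* and 0.70 and 0.89 for *Fads6*. Among the genes that supply malonyl-CoA, NADPH, and palmitate, edgeR called 0 of 8, 6 of 8 had a positive log2 fold change, and the 2 most abundant were *Me1* (0.46, SE 0.14, adjusted p 0.105 by edgeR) and *Acly* (0.73, SE 0.21, adjusted p 0.0951 by edgeR), both of which DESeq2 called.

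In the other 5 lists edgeR called 0 genes in HFD versus ND mice. Besides *Me1* and *Acly*, DESeq2 called *Hacd4*, *Abcd3*, *Cers4*, *Scap*, and *Mlx* there (12.6% of all genes called). Of the elongation cycle's other enzymes, 3 of 4 were tested, and the dehydratases *Hacd2* and *Hacd4* had log2 fold changes of -0.0094 (SE 0.12, adjusted p 0.973 by edgeR) and -0.62 (SE 0.21, adjusted p 0.126). Of 10 tested genes of peroxisomal import and shortening of very long chains, 8 had a positive log2 fold change, with *Scp2* at 0.095 (adjusted p 0.550 by edgeR). Of 5 tested ceramide synthases, 4 had a negative log2 fold change, with *Cers2* at 0.31 and *Cers5* at -0.10 (adjusted p 0.173 and 0.511 by edgeR). Of 12 genes for lipogenic transcription factors and their regulators, 8 had a positive log2 fold change, with *Srebf1* at -0.22 and *Srebf2* at 0.26 (adjusted p 0.342 and 0.336 by edgeR). In Vasc versus HFD mice 0 of 56 tested genes of these lists were called by edgeR and 0 by DESeq2, with 1 at an unadjusted p below 0.05. In Vasc versus ND mice 0 of 57 were called by edgeR and 3 by DESeq2 (2.93% of all genes), with 9 positive and 4 negative log2 fold changes at an unadjusted p below 0.05 (14% of all genes).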

How the data were processed

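RNA of the adrenal cortex of 12 mice (1 library each) was prepared by the authors with a stranded total RNA kit, trimmed with cutadapt, aligned to GRCm38 with STAR, and counted per GENCODE M12 gene with HTSeq 0.6.1p1 in reverse-strand mode. The deposited values are raw counts. Symbols, positions, and exon lengths came from GENCODE M21 (GRCm38), with a symbol for 49326 of 49585 genes. The members and lists were chosen with earlier results of these data known. Groups and replicate numbers came from the labels.

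Each pair of groups was fitted with edgeR 4.0.16 in R 4.3.3 (TMM, filterByExpr with a minimum count of 10, robust quasi-likelihood test), with Benjamini-Hochberg adjustment over all tested genes and a threshold of 0.05. The alternatives were DESeq2 1.42.0 (Wald test), its size factors in edgeR, library totals, no filter, a joint fit of the 12 mice, a minimum of 10 counts in each mouse, a fit that is not robust, a replicate block, the longest transcript as gene length, and each mouse left out. The length alternative for the shares of elongases was chosen after seeing the data. Levels for correlations between members and with marker sums were log2 CPM without a prior count (scipy 1.17.1). The search for genes most like a member and the check of replicate numbers used log2 CPM with a prior count of 2 (edgeR). Every member was named. Of the pathway lists, genes past the threshold were named and, in HFD versus ND mice, where a list had none, its 2 most abundant. Values of 2 genes that this naming would include are not reported here. HFD and Vasc mice share the replicate numbers 1 to 4, and the labels do not say what a number marks. After group means were subtracted, same-numbered mice correlated at 0.116 to 0.632, and different numbers reached 0.598. As only 1 of 4 HFD mice correlated best with its own number, the numbers were not taken to pair the mice. Replicates 1 and 2 of either group did, however, correlate negatively with replicates 3 and 4 of the other (-0.134 to -0.634). What this split marks was not tested, and it enters the correlations between members with group means subtracted. The main fit had no block, and the replicate block was an alternative only. ND mice share only the number 2 with the others. The fits were tested on simulated data. Counting precision follows the depth of 34785979 to 67295963 counts and limited *Elovl2*, *Elovl3*, and *Elovl4*, whose lowest libraries held 9, 1, and 13 counts.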

Additional observations from a re-analysis of the deposited data

How the results depend on the processing

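The edgeR fits of 4 against 4 mice with TMM factors and the filter called no member. In HFD versus ND mice, DESeq2 called 2 members (*Elovl1* and *Elovl2*), the fit of all 12 mice 1 (*Elovl1*), and leaving out 1 mouse at a time between 0 and 1 (*Elovl1* without HFD replicate 1). Over all genes, the 230 calls became 2008 by DESeq2, 84 with library totals, 556 in the fit of all 12 mice, and between 0 and 918 with 1 mouse left out (918 without HFD replicate 1, 78 without ND replicate 2, 0 without any other mouse). Higher genes made up 155 of 230 calls with TMM factors, 1005 of 2008 by DESeq2, and 40 of 84 with library totals, where the median log2 fold change was -0.11. The 2 pathway genes became 13 by DESeq2, 0 with library totals, and between 0 and 10 with 1 mouse left out (10 without HFD replicate 1, 1 without ND replicate 2, 0 without any other mouse). In Vasc versus HFD mice, DESeq2 called 6 genes, and leaving out 1 mouse 0. In Vasc versus ND mice, all genes gave 467 calls by DESeq2, 2 in the fit of all 12 mice, and between 0 and 1 with 1 mouse left out, members 1 by DESeq2 (*Elovl7*), and pathway genes 3 by DESeq2 and 1 (*Acsl1*) in the fit of all 12 mice. The cause was not tested.

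Of 196 log2 fold changes of members under the alternatives that kept all mice of a comparison, 187 kept direction and side of the threshold, 4 newly passed it, and 5 changed sign. These were *Hsd17b12* in HFD versus ND mice (-0.11 with library totals, -0.0048 with at least 10 counts in every mouse), *Elovl7* in Vasc versus HFD mice (0.0062 with the replicate block), *Tecr* in Vasc versus HFD mice (0.014 with library totals), and *Elovl5* in Vasc versus ND mice (-0.015 with library totals). With 1 mouse left out, the range crossed 0 for *Hsd17b12* in HFD versus ND (-0.070 to 0.071) and Vasc versus HFD mice (-0.14 to 0.0029), *Elovl7* in Vasc versus HFD mice (-0.24 to 0.18), and *Elovl5* (-0.093 to 0.18), *Elovl6* (-0.077 to 0.24), and *Hacd3* (-0.072 to 0.060) in Vasc versus ND mice. The replicate block changed no call in Vasc versus HFD mice (0 members, 0 genes, 696 genes at an unadjusted p below 0.05 against 221 without it). The longest transcript changed 2 ranks in the order of levels and gave *Elovl5* a share of 83.6% of the summed elongase level.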
